A study of Homo sapiens with 3 samples.

Results

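The genes of cytosolic translation initiation and elongation were followed in MTAC-P cells, a human lung cancer line derived from PC9 that resists inhibitors of the EGFR tyrosine kinase. The set was a fixed list of 42 genes for the subunits of initiation factors eIF1 to eIF6, the elongation factors eEF1 and eEF2, the eIF4E repressor 4E-BP1 and the poly(A)-binding protein PABPC1. The rule that picks the members uses gene names and no measured value, though the list was drawn up with earlier results of these data known. All 42 were found among the 26562 genes of the deposited tables, and 34 of them were among the 3889 genes tested, those with a mean of at least 1 FPKM (fragments per kilobase of transcript, scaled to the mapped fragments of the library). EIF2S1, EIF2B1, EIF2B3, EIF2B4, EIF2B5, EIF4E and EIF4G3 lay under that mean, and EIF4A1 was left out of the fit because an entry of it was marked as low data in each library.

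The study holds 1 library of cells that carry a hairpin against luciferase (the control) and 2 libraries labelled shBCAT1, numbered 1 and 2, of cells with a hairpin against BCAT1. BCAT1 is the cytosolic branched-chain aminotransferase, which takes the amino group off branched-chain amino acids such as leucine. All libraries are of the same MTAC-P line, grown in DMEM with 10% serum. The design text speaks of triplicates, the labels do not say whether the shBCAT1 libraries share a hairpin or come from separate cultures, and p-values then measure a spread that may be technical. The comparison asks which transcripts differ when BCAT1 is targeted. In what follows the libraries labelled shBCAT1 are called labelled library 1 and labelled library 2.

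The targeted gene did not bear out the labels. BCAT1 stood at 0.213 FPKM in the control, at 1.05 in the library labelled shBCAT1 1 and at 0.241 in the library labelled shBCAT1 2. It was higher than the control in labelled library 1, with bounds apart, and overlapped it in labelled library 2. Neither library showed a lower level of the targeted mRNA, and directions given here are between libraries as labelled. Epithelial markers were present, with KRT7 at 262 to 320 FPKM over the 3 libraries and EPCAM at 3.28 to 3.91, while the lung markers SFTPC and SCGB1A1 were listed at 0 and NKX2-1 did not pass 0.101. Of 5 fibroblast markers 4 were listed at 0 (summed level 0.105 to 0.259), and of 5 leukocyte markers PTPRC was listed at 0 while CD68 was at 3.42 to 3.6 FPKM and LYZ at 0.0901 to 0.173. The summed FPKM of all genes was 53898 in the control and 44313 and 46145 in labelled libraries 1 and 2. The median SD of a gene, read from the deposited confidence bounds, was 12.5% to 13.6% of its value. Bounds given beside values are these deposited ones, summed over the entries of a gene, and hold no spread between libraries. In bulk RNA, fewer cells of a type and less RNA per cell cannot be told apart.

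In initiation, eIF2 brings the initiator tRNA to the small ribosomal subunit and eIF2B recharges eIF2 with GTP, while the eIF4 factors and PABPC1 hold and unwind the capped mRNA and eIF3 bridges mRNA and ribosome. In elongation, eEF1A delivers aminoacyl-tRNAs, the eEF1B subunits recharge eEF1A, and eEF2 moves the ribosome along. Phosphorylation of eIF2 under amino acid shortage slows initiation, and mTORC1, which senses leucine among other signals, releases eIF4E from 4E-BP1. Many mRNAs of the translation machinery begin with a C and a stretch of pyrimidines, the terminal oligopyrimidine (TOP) tract, through which mTORC1 and the RNA-binding protein LARP1 control their translation.

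The differences of the translation factors were small, and none passed the test. By limma 0 of 34 passed an adjusted p of 0.05, beside 0.360% of all genes tested that passed lower and 0.00% that passed higher. That 0.360% was 14 genes, and with loci under 300 bases left out 1 gene of 3810 passed. At an unadjusted limma p under 0.05 there was 1 member, EIF2S2, beside 5.61% of all genes. Below the control in both labelled libraries were 14 of 34 (41.2%), beside 43.7% of all genes tested, and above it in both were 4 (11.8%), beside 25.6%. The median log2(FPKM + 1) difference of the set was -0.09, and that of all genes tested was -0.06. The smallest adjusted p of a member was 0.797.

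Many members differed between the labelled libraries themselves. Of the 34, 16 (47.1%) were each below the control in labelled library 1 and above it in labelled library 2, a pattern held by 25.0% of all genes tested. The opposite pattern was held by 0 members and 5.35% of all genes. In all, 30 of 34 were below the control in labelled library 1 (68.7% of all genes tested) and 14 in labelled library 2 (49.0%). By bounds, 7 were apart and lower in labelled library 1 (7.61%) and 0 higher (1.65%), and in labelled library 2 there were 2 lower (7.66%) and 4 higher (7.35%). Against the shared control, the median difference of the members was -0.19 in labelled library 1 and 0.03 in labelled library 2, and over all genes tested these were -0.12 and 0.01. The bounds of 8 members lay apart between the labelled libraries, each higher in labelled library 2 (7.71% of all genes tested), and those of 0 members were apart and lower (1.83%). These 8 were EIF2S3, EIF2B2, EIF3A, EIF3H, EIF4B, EEF1G, EEF2 and PABPC1. These counts depended on scaling. The count of 16 was 8 (23.5%, beside 13.9% of all genes) with median-of-ratios scaling and 7 (20.6%, beside 14.3%) with quantile normalization, and the opposite pattern was then held by 2 members in each. Members below the control in labelled library 1 numbered 21 and 16 under these scalings, with medians of -0.05 and 0.00 there. Of all genes tested, 36.8% and 32.2% were then below it in both, and a further 13.9% and 14.3% in labelled library 1 only. Their medians in labelled library 1 were -0.01 and 0.02. Labelled library 2 was above labelled library 1 for 28 of the 34 in FPKM as deposited. That count was 17 with median-of-ratios scaling, 23 with quantile normalization and 20 with the length trend removed. The share of all genes tested in that order was not taken, so these counts have no background beside them.

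**Figure D1:**
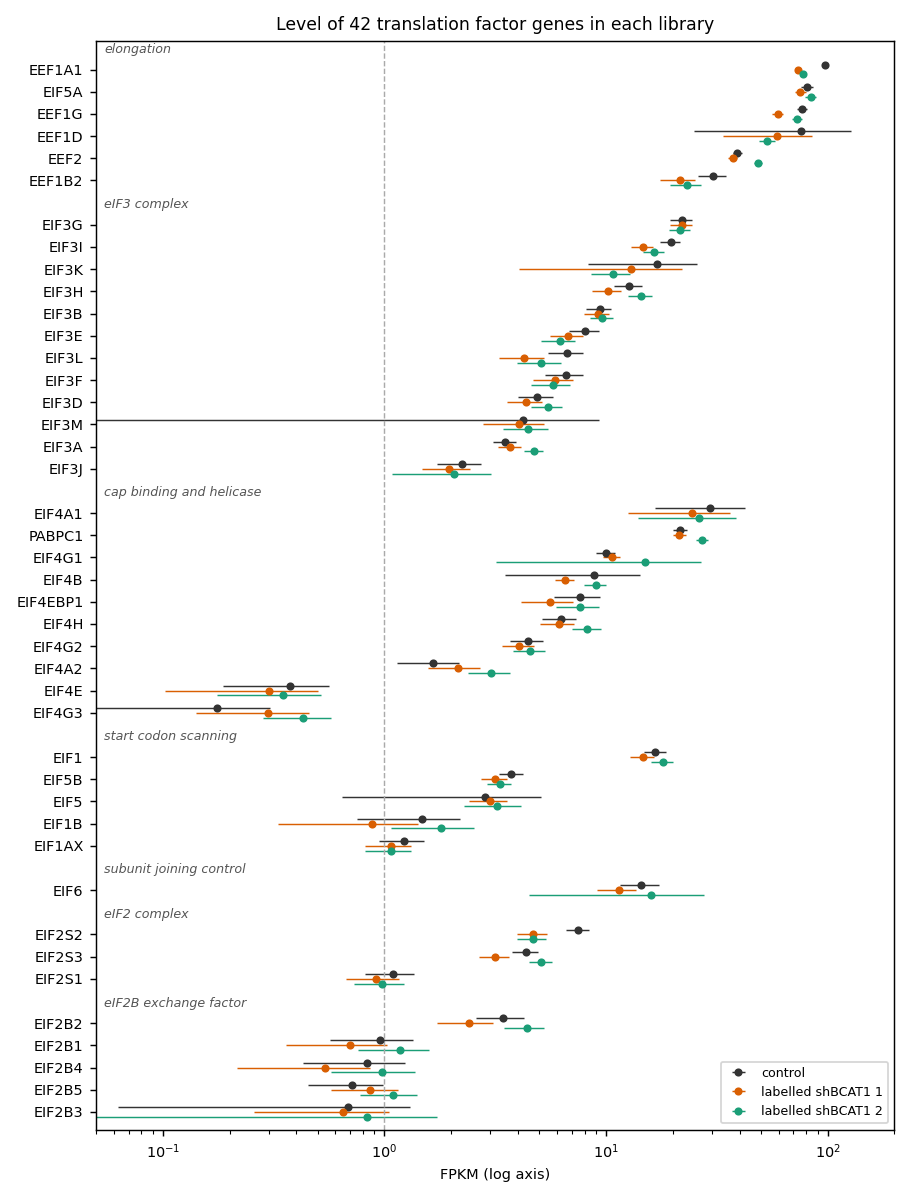
FPKM of each of the 42 genes on a log axis, grouped by role and ordered within a role by the control, with the control in black, labelled library 1 in orange and labelled library 2 in green. Bars are the confidence bounds summed over the entries of a gene and stop at the left edge where they reach below it, and the dashed line marks 1 FPKM. Elongation factors hold the highest levels and eIF2B subunits and EIF4E lie near or under 1 FPKM.

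Levels, which FPKM makes comparable between genes of different length, spanned more than 2 orders of magnitude. In the control the 6 elongation genes summed to 400 FPKM of the 667 FPKM of the 42 genes. EEF1A1, a carrier of aminoacyl-tRNA, had the highest value at 96.9 FPKM, apart by its bounds from the next, EIF5A, but within the wide bounds of EEF1D. EIF5A, whose product helps ribosomes past stretches of proline, followed at 80.7, EEF1G at 76.7 and EEF1D at 76, and the bounds of each of these overlapped those of its neighbour. After EEF2 at 39.1 FPKM and EEF1B2 at 30.4 came the helicase gene EIF4A1 at 29.5. From EEF1B2 down to the lowest gene, EIF4G3 at 0.176 FPKM, the bounds of each gene overlapped those of the next, so the order within that run is not resolved by these bounds. EIF4E, whose product binds the cap, was at 0.374 FPKM in the control, 0.302 in labelled library 1 and 0.348 in labelled library 2, while its repressor gene EIF4EBP1 was at 7.6, 5.6 and 7.62.

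The start of the mRNA was set beside these values because several of the genes at issue are known TOP mRNAs. A run was counted when the annotated first base is a C and at least 4 further bases that are each C or T follow it, read on the gene's own strand. RefSeq start sites (GRCh38.p14) were at hand for 33 of the 42 genes. The other 9, EIF2S2, EIF3A, EIF3E, EIF3G, EIF3H, EIF3L, EIF4EBP1, EEF1D and PABPC1, were not checked for a run. Of the 33, 10 (30.3%) had such a run at a start, beside 6.24% of 15843 protein-coding genes and 9.62% of the 3013 tested genes with a start site. By the same rule on the opposite strand, the run was at the start of 0 members and 2.32% of protein-coding genes. The windows below hold 15 bases before the start and 15 from it, with the pyrimidine run in capitals, and they show how the start of an elongation factor mRNA compares with that of eIF4G1, which has none.
EEF1A1: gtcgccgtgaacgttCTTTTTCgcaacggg
EEF1B2: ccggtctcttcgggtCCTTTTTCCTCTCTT
EEF2: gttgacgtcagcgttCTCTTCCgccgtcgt
EEF1G: tctcccgggcggcttactttgcggcagcgc
EIF3K: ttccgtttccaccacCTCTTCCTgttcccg
EIF4A2: gttgggcgccgctgtCTTTTCagtcgggcg
EIF4G1: tctgtgcggggagccggaaatggttgtgga
They lie at chr6:73521018-73521047 (minus strand), chr2:206159880-206159909 (plus), chr19:3985449-3985478 (minus), chr11:62573877-62573906 (minus), chr19:38619173-38619202 (plus), chr3:186783562-186783591 (plus) and chr3:184314591-184314620 (plus). EEF1B2 and EIF4G1 have further annotated starts, and the upstream start of EEF1B2 holds no run. The run of EEF1B2 is 16 bases long and passes the end of its window. The start of EEF1G, a known TOP mRNA, does not meet the rule at this annotated base.

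Genes with such a run were found on both sides of the control. The others with a run were EIF2S3, EIF3D, EIF3F, EIF3M and EIF4B. Of the 10, 4 were below the control in both libraries, 1 was above it in both and 5 were split, with a median difference of -0.12. The 15 tested members with a start site and no run had a median of -0.05, with 5 below in both and 2 above. Over all tested genes these medians were -0.15 for 290 genes with a run and -0.06 for 2723 without. Of those 290, 165 were below the control in both and 47 above, and of the 2723 these counts were 1170 and 703. Those with a run had a median length of 1740 bases and those without 2068. Their control levels summed to 9118 FPKM over 290 genes and to 18051 FPKM over 2723, so the mean level per gene was higher with a run. Across all tested genes with a length, Spearman's rho of the difference was 0.45 with length and -0.31 with level. The run was not tested apart from length and level. On the list of members known as TOP mRNAs (EEF1A1, EEF1B2, EEF1D, EEF1G, EEF2, EIF3E, EIF3F, EIF3H, EIF4B and PABPC1), 6 of 10 were below the control in both libraries and 0 above, with a median of -0.20 beside -0.05 for the 24 other members tested. All 10 have a mean of 5 FPKM or more, and of all 1042 genes at that level 64.4% were below in both, with a median of -0.22. With quantile normalization 2 of the 10 were below in both (32.2% of all genes tested) and 2 above (38.1%), with a median of 0.01. That list held 5 of the 8 genes whose bounds were apart between the labelled libraries, EIF3H, EIF4B, EEF1G, EEF2 and PABPC1. Of all genes tested 7.71% had bounds apart and higher in labelled library 2 than in labelled library 1. That share was not taken for genes at the level of the list, whose lowest mean was 6.06 FPKM. LARP1, which binds the TOP tract, was at 3.68, 4.54 and 4.86 FPKM in the control and labelled libraries 1 and 2, with bounds apart from the control in both. Its log2(FPKM + 1) difference was 0.28, at a limma adjusted p of 0.804.

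Among the 6 elongation genes, the 4 eEF1 subunits had lower values in both labelled libraries and EEF2 and EIF5A were split. All 6 have a mean of 5 FPKM or more. Of all 1042 genes at that level 64.4% were below the control in both, with a median of -0.22. The median difference of the 6 was -0.29, and it was -0.21 with median-of-ratios scaling but 0.08 with quantile normalization. There 1 of the 6 was below the control in both libraries, beside 32.2% of all genes tested. EEF1A1 (chromosome 6, 73515750 to 73521032, hg38) stood at 96.9 FPKM in control cells (bounds 94.1 to 99.6), at 73.4 (71 to 75.8) in labelled library 1 and at 77.6 (75.2 to 80) in labelled library 2. Both libraries thus lay under the control with no overlap of bounds, which held for 2 members, EEF1A1 and EIF2S2, and for 4.17% of all genes tested. Higher in both with bounds apart were 0 members, beside 1.26% of all genes. The difference of EEF1A1 came to -0.36 ± 0.16 (SE) on the log2(FPKM + 1) scale, at an adjusted p by limma of 0.797.

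EEF1B2, an exchange subunit for eEF1A (chromosome 2, 206159594 to 206162929), stood at 30.4 FPKM in control cells, 21.5 in labelled library 1 and 23.1 in labelled library 2. EEF1D, another exchange subunit, was at 76, 59.3 and 53.2 FPKM, and the bounds of the control, 25 to 127, spanned both other values. EEF1G, the scaffold of the exchange complex, was at 76.7, 59.6 and 72.7 FPKM, so labelled library 1 was apart from the control and labelled library 2 overlapped it. The differences of EEF1B2 and EEF1D were -0.43 ± 0.19 and -0.43 ± 0.18 (SE), each at a limma adjusted p of 0.797. With quantile normalization the differences of EEF1A1 were 0.00 and 0.00 and those of EEF1D 0.04 and -0.02 in the labelled libraries, that of EEF1G was 0.15 and that of EEF1B2 was -0.12. Median-of-ratios scaling kept all 4 below the control, at -0.28 for EEF1A1, -0.36 for EEF1B2, -0.36 for EEF1D and -0.14 for EEF1G.

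EEF2, the translocase, was at 39.1 FPKM in the control, 37.2 in labelled library 1 and 48.7 in labelled library 2. Labelled library 2 was above both others with its bounds apart (46.7 to 50.7 against 37.3 to 41 in the control). EIF5A was at 80.7, 75.3 and 83.8 FPKM, with overlap of its bounds with the control's in both. EEF1A2, a close paralog of EEF1A1 that in normal tissue is mainly made in muscle and nerve, was not among the 42 genes but exceeded each of them, at 126, 112 and 96.3 FPKM. Both labelled libraries lay under the control with no overlap of bounds (108 to 116 and 92.7 to 99.9 against 121 to 130), as for EEF1A1 and 4.17% of all genes tested. The difference of EEF1A2 was -0.27, at a limma adjusted p of 0.804.

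Several elongation genes share sequence with copies elsewhere, and reads of such stretches can be assigned either way. In the most abundant transcript with a GENCODE match, 64.2% of the 50-base words of EEF1G, 56.8% of those of EEF1B2 and 29.3% of those of EEF1A1 stood also in transcripts of genes at other loci, mostly processed pseudogenes (28 other genes for EEF1A1). The share was 46.9% for EIF3F, 47.4% for EIF4E, 31.7% for EIF5A, 30.6% for EIF4B and 22.6% for EIF2S2. It was 0 for EEF2, EIF3A, EIF3G, EIF3K and EIF4G1. The values of the genes with shares this high are uncertain to that extent, and the part of shared reads in their differences was not tested.

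**Figure D2:**
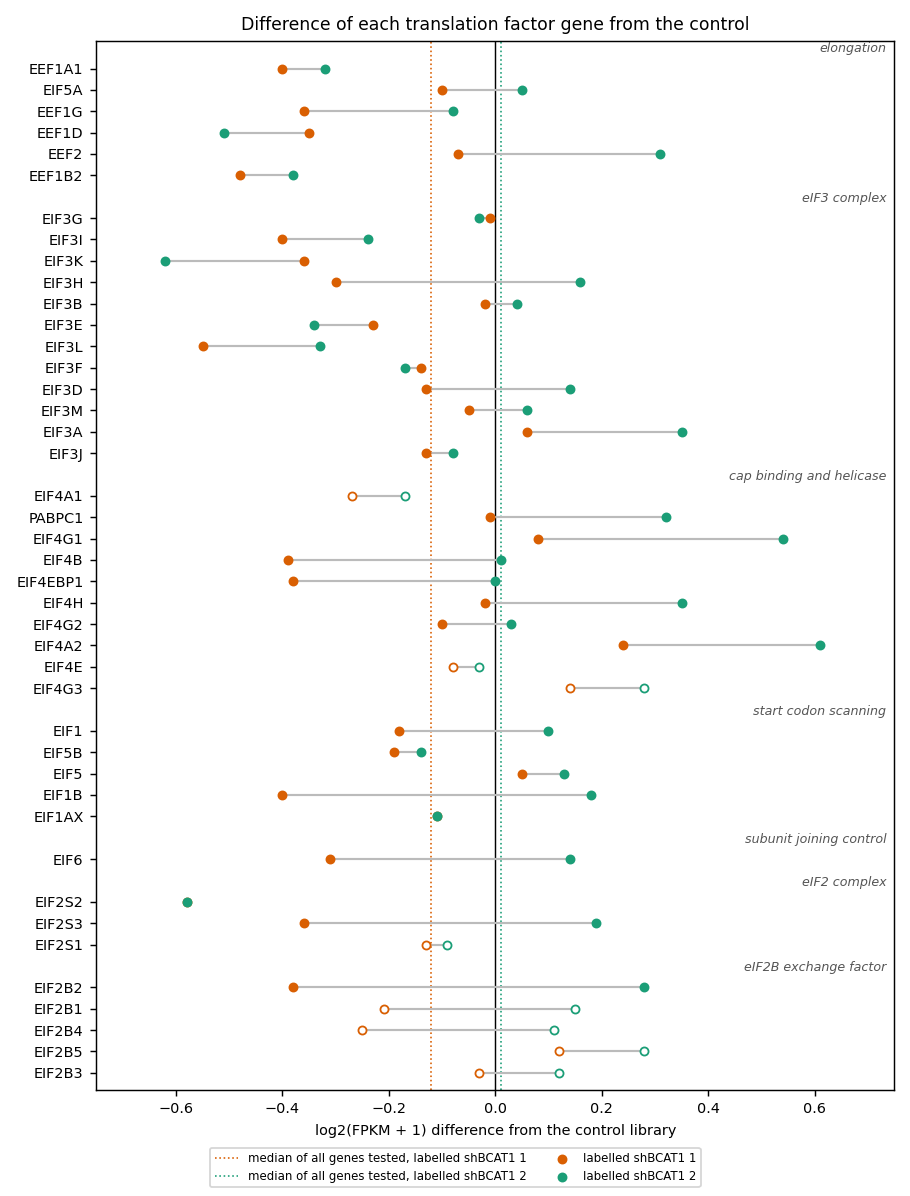
Difference in log2(FPKM + 1) of each gene from the control library, in orange for labelled library 1 and in green for labelled library 2, joined by a grey line. Open circles are genes outside the fit, and dotted lines mark the medians of all genes tested, -0.12 and 0.01. Green covers orange for EIF2S2 and EIF1AX, the points of EIF2S2, EEF1B2, EEF1D, EIF3K and EIF3L lie left of 0, those of EIF4A2 and EIF4G1 lie right of it, and 16 of the 34 tested genes have lines that cross it.

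The 3 genes of the eIF2 complex were all below the control in labelled library 1, and EIF2S1 and EIF2S2 were below it in labelled library 2. EIF2S2 (chromosome 20, 34088309 to 34112279), which encodes eIF2β, had the largest difference among the 34 genes in FPKM as deposited. With quantile normalization that of EIF4G1 (0.53) was larger, and with the row of the highest mean FPKM that of EEF1B2 (-0.80). EIF2S2 was at 7.49 FPKM in control cells (bounds 6.57 to 8.4). It was at 4.68 (3.97 to 5.4) in labelled library 1 and at 4.67 (3.98 to 5.37) in labelled library 2. Both labelled libraries were clear of the control and next to each other. The difference was -0.58 ± 0.19 (SE), with an unadjusted p of 0.0378 and an adjusted p of 0.797 by limma, and it was -0.51 with median-of-ratios scaling, -0.43 with quantile normalization and -0.59 with the length trend removed. EIF2S3, the subunit eIF2γ that binds GTP and tRNA, was at 4.34, 3.16 and 5.09 FPKM, under the control's bounds in labelled library 1 and overlapping them in labelled library 2. EIF2S1, the subunit that is phosphorylated under stress, was at 1.09, 0.912 and 0.971 FPKM with overlapping bounds.

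The exchange factor eIF2B was read at low levels. EIF2B2 was at 3.43 FPKM in the control, 2.41 in labelled library 1 and 4.38 in labelled library 2, on either side of the control and apart from each other. EIF2B1 was at 0.957, 0.696 and 1.17 FPKM, EIF2B3 at 0.687, 0.653 and 0.836, and EIF2B5, the catalytic subunit, at 0.715, 0.862 and 1.09. Their bounds overlapped the control's in both libraries. Of the eIF2 kinases and phosphatase subunits 1 of 6 was tested, PPP1R15A, the stress-induced subunit that directs dephosphorylation of eIF2, at 3.9, 2.96 and 3.21 FPKM with a difference of -0.27 and a limma adjusted p of 0.812.

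The 12 genes of eIF3 were mostly at or under the control. Below the control in both libraries were 7 (43.7% of all genes tested), with 1 above (25.6%) and 4 split. The median difference of the 12 was -0.09, beside -0.06 over all genes tested. Their median length was 1979 bases. Of all tested genes under 2000 bases 59.7% were below in both, and of longer ones 28.6%. Quantile normalization gave the 12 a median of 0.06, with 5 below (32.2% of all genes) and 5 above (38.1%), and median-of-ratios scaling gave -0.03. EIF3K (chromosome 19, 38619072 to 38636959) stood at 16.9 FPKM in control cells, 13 in labelled library 1 and 10.7 in labelled library 2. EIF3L (chromosome 22, 37849372 to 37888782), whose product pairs with that of EIF3K at the edge of the complex, was at 6.67, 4.25 and 5.11 FPKM. EIF3I (chromosome 1, 32222370 to 32231604), a propeller subunit, was at 19.6, 14.6 and 16.4, and EIF3E was at 8.05, 6.72 and 6.17. All 4 were highest in the control, though the bounds of EIF3K and EIF3E overlapped it in both libraries and those of EIF3I and EIF3L in labelled library 2. Differences were -0.49 ± 0.22 (SE) for EIF3K and -0.44 ± 0.21 for EIF3L, each at a limma adjusted p of 0.797. For EIF3I and EIF3E they were -0.32 ± 0.20 and -0.28 ± 0.20, with adjusted p of 0.804 and 0.805. Quantile normalization brought EIF3I to -0.05, EIF3E to -0.12, EIF3K to -0.24 and EIF3L to -0.29, and with the length trend removed EIF3I was at -0.19 and EIF3E at -0.17.

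The other 8 eIF3 subunits included split ones. EIF3G, which helps scanning, was at 22, 21.9 and 21.6 FPKM in the control and labelled libraries 1 and 2, the most even gene of the complex. EIF3B, a scaffold of the core, was at 9.34, 9.16 and 9.62, EIF3D, which can itself bind a cap, at 4.87, 4.36 and 5.45, and EIF3M at 4.21, 4.03 and 4.44. EIF3F was at 6.56, 5.88 and 5.74 FPKM, a difference of -0.15 ± 0.19 (SE) at a limma adjusted p of 0.872, and that difference was 0.01 with quantile normalization or with the length trend removed. EIF3J was at 2.23, 1.95 and 2.06. EIF3H was split, at 12.7, 10.2 and 14.3 FPKM. EIF3A, the largest scaffold, was at 3.51, 3.69 and 4.73, and its bounds in labelled library 2 lay above both others. Within the complex EIF3G and EIF3A thus stood 22 against 3.51 FPKM in the control, although their proteins are held in 1 complex.

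The cap-binding and helicase group had 7 tested members. Of these 0 were below the control in both libraries (43.7% of all genes tested), 2 above it in both (25.6%) and 5 split. Their median was 0.15, with -0.02 in labelled library 1 and 0.32 in labelled library 2. With median-of-ratios scaling 1 was below (36.8% of all genes) and 5 above (35.8%), with a median of 0.22. With quantile normalization 0 were below (32.2%) and 5 above (38.1%), with a median of 0.32. The median length of the group was 3485 bases. Of all tested genes of 2000 bases or more 28.6% were below in both and 36.4% above. EIF4A2 (chromosome 3, 186783572 to 186789896), a helicase paralog of EIF4A1, stood at 1.66 FPKM in control cells, 2.14 in labelled library 1 and 3.04 in labelled library 2, where its bounds were apart from the control's. Its difference was 0.42 ± 0.24 (SE), at a limma adjusted p of 0.804. EIF4A1 itself was at 29.5, 24.3 and 26.2 FPKM with wide and overlapping bounds.

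EIF4G1, the scaffold between cap and ribosome, was at 9.99 FPKM in the control, 10.6 in labelled library 1 and 15 in labelled library 2, with bounds of 3.17 to 26.9 in the last. EIF4G2, a related factor that acts without eIF4E, was at 4.44, 4.06 and 4.55, and EIF4G3 at 0.176, 0.299 and 0.428. PABPC1 was even between control and labelled library 1 at 21.6 and 21.4 FPKM and stood at 27.1 in labelled library 2, with bounds apart from both. EIF4B and EIF4H, cofactors of the helicase, were at 8.86, 6.53 and 8.96 and at 6.24, 6.11 and 8.24 FPKM. In FPKM as deposited labelled library 2 was thus above labelled library 1 for each tested gene of this group. The share of all genes tested in that order was not taken. This order did not hold for EIF4G2 with the row of the highest mean FPKM, where the differences from the control were -0.14 and -0.35. It also did not hold for that gene with median-of-ratios scaling (0.03 and 0.02) or with the length trend removed (-0.08 and -0.09). With the length trend removed EIF4B (-0.11) and EIF4G2 (-0.09) were below the control in labelled library 2.

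Factors of start codon choice and subunit joining showed small differences. EIF1, which guards the choice of the start codon, was at 16.7 FPKM in the control, 14.6 in labelled library 1 and 18 in labelled library 2, and its paralog EIF1B was at 1.47, 0.874 and 1.8. EIF1AX was at 1.23, 1.07 and 1.07 FPKM. EIF5, which activates the GTPase of eIF2, was at 2.85, 2.99 and 3.21, and EIF5B, the GTPase of subunit joining, at 3.74, 3.16 and 3.31. EIF6, which keeps the large subunit from joining early, was at 14.4, 11.4 and 16 FPKM. The bounds of these 6 genes overlapped the control's in both libraries.

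**Figure D3:**
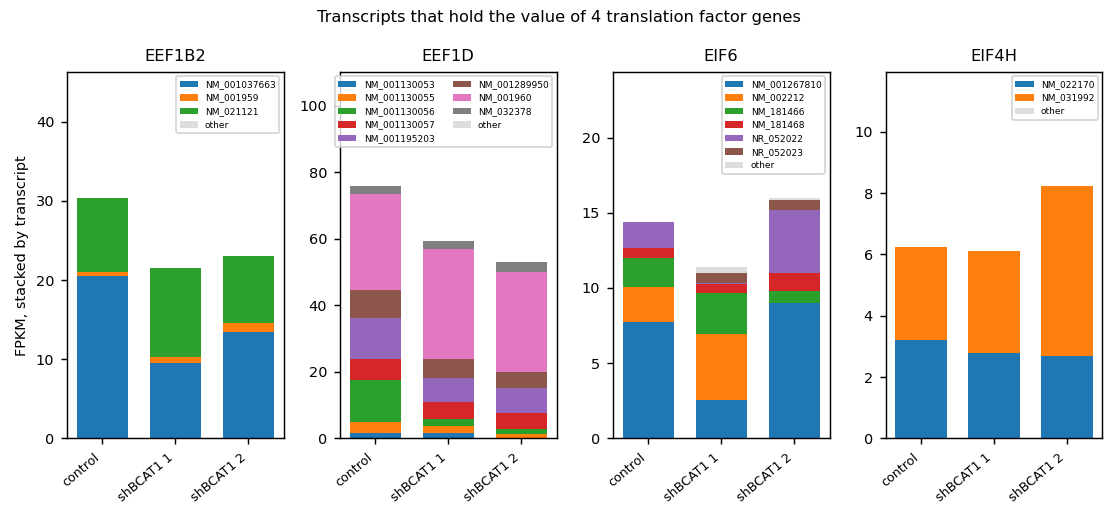
FPKM of 4 genes in the control and labelled libraries 1 and 2, stacked by RefSeq transcript, with transcripts under 0.5 FPKM in each library in pale grey. The main transcript of EEF1B2 is lower in both labelled libraries while another of it is not, and the makeup of EIF6 differs between all 3 libraries.

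Single transcripts differed in ways the sums hide. The deposited entries are RefSeq transcripts, and the share of reads given to each of several overlapping transcripts is an estimate. For EEF1B2, the transcript NM_001037663 was at 20.5 FPKM in control cells (bounds 17.1 to 23.9), 9.48 (6.67 to 12.3) in labelled library 1 and 13.5 (10.8 to 16.3) in labelled library 2. Its companion NM_021121 was at 9.32, 11.2 and 8.54, with overlapping bounds, so the lower sum of EEF1B2 lay on NM_001037663. For EEF1D, the main transcript NM_001960 was at 29, 33.1 and 30 FPKM, with bounds of 0 to 63.6 in the control. Another, NM_001130056, was at 12.5 (5.92 to 19) in the control and at 2.24 (0 to 7.41) and 1.3 (0.519 to 2.08) in the labelled libraries. With the row of the highest mean FPKM standing for each gene, the difference of EEF1D was 0.11 instead of -0.43 and that of EEF1B2 was -0.80.

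For EIF4H, the transcript NM_031992 was at 3.02, 3.33 and 5.56 FPKM and NM_022170 at 3.21, 2.79 and 2.68, so the higher sum of labelled library 2 lay on 1 of them. For EIF2B4 the control's value, 0.833 FPKM, was all on NM_172195, and that of the labelled libraries, 0.537 and 0.978 FPKM, was all on NM_001034116. Of EIF6, the transcript NM_001267810 held 53.5% of the summed FPKM in the control, 22.5% in labelled library 1 and 56.1% in labelled library 2, and NM_002212 held 16.3%, 38.4% and 0.00539%. Between labelled libraries 1 and 2 the bounds of NM_002212 were apart (3.02 to 5.76 against 0 to 0.133 FPKM). Those of NM_001267810 overlapped (1.41 to 3.73 against 2.82 to 15.2). The estimated makeup of EIF6 thus differed between the labelled libraries by NM_002212, and for NM_001267810 the bounds do not resolve it.

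**Figure D4:**
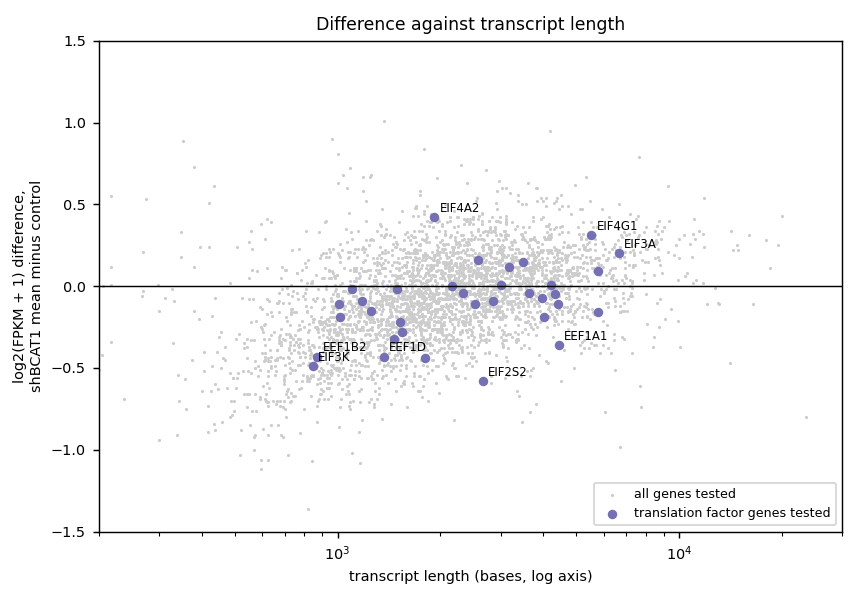
Difference in log2(FPKM + 1), mean of the labelled libraries minus control, against transcript length on a log axis, for all tested genes with a length (grey) and the translation factors among them (purple, 8 named). Of 3795 genes 56 lie outside the axes, and shorter transcripts are lower in general, in both sets.

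Shorter transcripts had lower values relative to the control, in the members as in all genes. Across the 34 tested members Spearman's rho between the difference and the length was 0.43, and across 3795 tested genes with a length it was 0.45. These are descriptions across genes that share the same 3 libraries. Of 14 members under 2000 bases 9 (64.3%) were below the control in both libraries, beside 59.7% of all tested genes of that length, and of 20 longer members 5 (25%), beside 28.6%. EIF3K at 845 bases and EEF1B2 at 873 were the shortest, and EIF4G1 at 5518 and EIF3A at 6646 were among the longest. With the length trend removed, EEF1B2 was at -0.14 and EIF3K at -0.18, while EIF2S2 was at -0.59, EEF1A1 at -0.41 and EIF4A2 at 0.48. Of 1042 genes with a mean of 5 FPKM or more, 64.4% were below the control in both libraries, and of the 22 members at that level 11 (50%). There 12.2% of all genes and 1 member were above it in both.

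Other translation factors outside the set were also mixed. Of 57 genes on 7 further lists 22 were tested. Of these 10 were below the control in both libraries (43.7% of all genes tested), 4 above (25.6%) and 8 split. Their median was -0.10, beside -0.06 over all genes tested. By limma 0 passed, 0 had an unadjusted p under 0.05, and the smallest adjusted p was 0.797. Poly(A)-binding proteins and their partners had 3 of 5 below (43.7% of all genes tested) and 1 above (25.6%). PABPN1, the nuclear poly(A)-binding protein, was at 10 FPKM in the control and 7.38 and 7.58 in labelled libraries 1 and 2, apart from the control in both, and PABPC4 was at 8.07, 5.5 and 6.05. PABPC4 differed by -0.42 and PABPN1 by -0.38, each with an adjusted p of 0.797.

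Of 5 further initiation factors tested 1 was below in both (43.7% of all genes tested). It was DENR, which acts in reinitiation, at 2.12, 1.57 and 2.11 FPKM. EIF3C, the remaining core subunit of eIF3, has the near-identical copy EIF3CL and is uncertain, and it was at 7.17, 6.14 and 13.4 FPKM. Among 6 further elongation factors 3 were below (43.7% of all genes tested) and 1 above (25.6%). DOHH, an enzyme that modifies eIF5A, was at 1.77, 1.29 and 1.43 FPKM, and GTPBP2 was at 0.807, 1.21 and 1.1. ETF1, the release factor, was the 1 tested gene of termination, at 1.35, 0.968 and 1.46. The mitochondrial elongation factor gene TUFM was at 9.25, 8.15 and 8.92 FPKM and the mitochondrial initiation factor gene MTIF3 at 1.84, 1.54 and 0.682, both below the control. MKNK2, a kinase of eIF4E, was at 1.59, 1.7 and 2.68 and the S6 kinase gene RPS6KB2 at 4.58, 5.93 and 4.71, both above it.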

How the data were processed

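RNA-seq libraries of 1 control and 2 shBCAT1 samples were grouped by their titles. The authors deposited FPKM with confidence bounds, per the file headers, for 56882 entries of RefSeq transcripts in each library. Trim Galore, TopHat, Cufflinks and the build hg38 stand in the submitters' processing notes. Versions, settings, annotation and strand: not given in the sources used here. Accessions were named with a RefSeq table on GRCh38.p14 (49281 of 50337) and GENCODE release 29 (645), and 411 stayed unnamed. FPKM was summed per symbol over all entries. Bounds were joined as a root sum of squares, with 2 SDs from value to bound. Genes with a status other than OK (341) were left out of the fit.

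limma 3.58.1 (R 4.3.3) was fitted with an intensity trend on log2(FPKM + 1), which understates changes of low genes, for genes whose mean reached 1 FPKM, with Benjamini-Hochberg adjustment over all 3889 and two-sided p-values. It has 1 residual degree of freedom (prior 2.99) and takes the control to vary like the libraries labelled shBCAT1. The fit was tested on simulated data, where it found nearly all large differences, few small ones and more false calls than the threshold allows. A count of 0 therefore does not show that small differences are absent. Read totals are unknown. Lengths and 50-base words came from the GENCODE transcript matched to the accession with the nearest ends. Lists were described by counts and medians.

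The members and lists were chosen with earlier results of these data known. All 42 members were named. Difference, SE and adjusted p were set for the 10 members whose lesser difference was greatest where both libraries lay on 1 side of the control, and up to 3 genes per further list were named by that measure. EIF3C, EIF3CL and ETF1 were named outside it, after their values were seen. Python 3.11.15, pandas 2.3.3, numpy 2.4.6, scipy 1.17.1 and matplotlib 3.10.9 were used. Alternatives changed the pseudocount, filter, scaling, summing, sequences used, short loci, length trend and libraries.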

Additional observations from a re-analysis of the deposited data

How the results depend on the processing

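No paired analysis was possible because the control has 1 library, so the groups share fewer than 2 replicate numbers. By limma 0 members passed in each alternative that allowed a test, with a smallest adjusted p of 0.415 to 0.883. With 1 library labelled shBCAT1 left out there was no test. Members below the control then numbered 14 to 30 (49% to 68.7% of all genes tested) and those above it 4 to 20. Those with bounds apart from it numbered 6 to 7, and the median difference was -0.19 to 0.03. The 14 members below the control in both libraries became 9 with quantile normalization, and of all genes tested 43.7% became 32.2%. The 4 above it became 1 at a minimum mean of 5 FPKM and 11 with median-of-ratios scaling. They became 14 with quantile normalization and 7 with the length trend removed. Of all genes tested 25.6% were above it in both. That share was 12.2%, 35.8%, 38.1% and 34.7% in these 4 settings, in the same order. The members' median was 0.06 with quantile normalization and -0.02 when scaled by the median of ratios. EEF1D changed sign with quantile normalization (0.01) and with the row of the highest mean FPKM (0.11), and EIF3F with quantile normalization (0.01) and with the length trend removed (0.01). Pseudocounts of 0.1 and 5 FPKM, primary chromosomes only and the removal of loci under 300 bases changed no count of members. Counts by bounds rest on FPKM as deposited and were not run under other scalings. Read depth is unknown, and low members such as EIF4E and the eIF2B genes have bounds too wide to resolve small differences.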
